A study of Mus musculus with 6 samples.

Results

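The genes described here are 42 mouse genes of mitosis and of the G2/M transition, taken by name from the 20882 gene columns of each deposited table, and all 42 had counts among T cells, NK cells, B cells, neutrophils and interstitial macrophages as classed below. They fall into 7 roles: mitotic kinases and cyclins, the chromosomal passenger complex, the spindle checkpoint with the anaphase-promoting complex, the kinetochore, chromosome structure, the spindle, and cytokinesis. They were measured by droplet single-cell RNA sequencing (10x Genomics Chromium) of viable lung cells sorted for CD45, the surface protein of leukocytes. All mice carried a humanized PD-1, the inhibitory receptor of activated lymphocytes, and were 6 to 8 weeks old. One group had received an isotype control antibody and the other a PD-1 agonist, in a study whose title concerns neutrophilic asthma and T cells. The column of treatments inside the tables calls the isotype cells untreated. Cell hashing, which tags the cells of each animal, was used to mix 3 samples of a group, and the cells could not be assigned to single mice here, so each treatment is 1 pool. The sources used here do not give how the humanized allele was made or how airway disease was induced.

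A dividing cell makes most of these transcripts late in its cycle, between the end of DNA synthesis and the separation of the daughter cells. Cyclins A and B switch on Cdk1, the kinase that starts mitosis, condensin and topoisomerase compact and untangle the chromosomes, kinetochores attach them to the spindle, and the anaphase-promoting complex with Cdc20 and Ube2c then destroys the cyclins. In resting cells a repressor complex named DREAM holds many of the genes silent through a promoter element called CHR, and the factor NF-Y binds CCAAT boxes beside it. Leukocytes of the lung are mostly resting, and T cells and NK cells can divide there after stimulation.

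RefSeq promoters (build GRCm38.p6, 250 bases before to 50 bases after the annotated start) were matched for 35 of the 42 genes, without Aurkb, Ccna2, Kif20a, Tpx2, Smc4, Incenp and Pbk. The letters searched on both strands were TTTGAA or TTTAAA for CHR and CCAAT for NF-Y. TTTAAA reads the same on both strands, and a CHR match can share a base with a CCAAT match. TTTGAA occurred in 27 of the 35 promoters (77.1%) against 18.1% of 27025 genes. Either CHR form occurred in 30 (85.7% against 27.8%) and CCAAT in 26 (74.3% against 37.9%). Both together stood in 25 promoters (71.4%) against 10.9% of all genes, and 17 (48.6%) had CHR with CCAAT at 2 or more places, against 3.25%. A match of letters describes the window and is no evidence of binding. A CHR match within 100 bases before the start occurred in 10 of the 35 promoters (28.6%) against 10.3% of all genes. The 120 bases before the start of 6 members, from 4 of the 7 roles, are shown because the arrangement of both motifs can be read in them. Each of these 6 has such a near match, so they do not stand for all 35. Capitals mark TTTGAA or TTTAAA and CCAAT, with TTCAAA and ATTGG as the forms on the other strand.
Cdk1 (chr10:69352913-69353032, minus strand): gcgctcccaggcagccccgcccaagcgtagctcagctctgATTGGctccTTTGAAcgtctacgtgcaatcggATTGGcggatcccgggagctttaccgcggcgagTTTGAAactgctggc
Ccnb1 (chr13:100786487-100786606, minus strand): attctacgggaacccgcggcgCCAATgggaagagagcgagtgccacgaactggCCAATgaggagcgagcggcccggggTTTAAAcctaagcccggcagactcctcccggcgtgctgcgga
Top2a (chr11:99024190-99024309, minus strand): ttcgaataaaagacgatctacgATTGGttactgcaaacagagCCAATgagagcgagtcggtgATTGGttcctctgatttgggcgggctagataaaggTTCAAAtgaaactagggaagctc
Cdc20 (chr4:118437344-118437463, minus strand): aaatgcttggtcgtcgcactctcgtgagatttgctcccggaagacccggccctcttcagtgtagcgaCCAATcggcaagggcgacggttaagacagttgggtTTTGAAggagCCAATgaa
Ube2c (chr2:164769809-164769928, plus strand): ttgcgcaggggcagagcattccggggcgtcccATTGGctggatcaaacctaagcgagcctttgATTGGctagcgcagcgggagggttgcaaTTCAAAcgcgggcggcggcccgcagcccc
Cenpa (chr5:30666766-30666885, plus strand): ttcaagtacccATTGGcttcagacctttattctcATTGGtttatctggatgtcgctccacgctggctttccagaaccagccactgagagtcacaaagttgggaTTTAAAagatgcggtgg

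The 6 tables held 6393 to 6749 cell records each and 21555787 to 29748968 counts. The 3 tables of a treatment shared cells: 2373 to 2736 barcodes were common to any pair, or 35.9% to 42.5% of the smaller table, against 3 to 13 barcodes for tables of different treatments. Values by table below are therefore views of 1 pool and not replicates. Table values that do not overlap say nothing of how mice vary, and no share of all genes was set beside them. With each barcode taken once and at least 500 expressed genes, 11781 isotype and 12693 agonist cells remained, with a median of 2803 and 2381 counts per cell and a count of Ptprc, the gene of CD45, in 91.9% and 91.5% of them. Since each treatment is 1 pool, there are no replicates and no test was made, treatment and library cannot be told apart, and every interval below is a 95% interval of counting error only. PCR, cell capture and mouse are not in it. Ratios are given as log2 of agonist over isotype, and a gene is said to be past the fold at a log2 ratio of 0.3 or more in either direction, with 50 or more counts over both treatments.

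The mitotic transcripts lay mainly in lymphocytes. Classes are clusters named from marker genes, so each is called "-like", and levels within a class are in CPM, each gene's counts relative to the class total, on the usual scale. The sum over all members is given first. NK cell-like cells held 3281 (interval 3231 to 3332) in isotype and 2727 (2680 to 2775) in agonist. T cell-like cells held 2802 (2770 to 2834) and 2191 (2159 to 2223). Of all member counts, T cell-like cells carried 41.6% in isotype and 35.7% in agonist, and NK cell-like cells 23.4% and 25.2%. Type 2 innate lymphoid cell-like cells followed with 1577 and 2027. Migratory DC-like cells, dendritic cells on their way to lymph nodes, held 1089 and 548, and cDC2-like cells, a class of conventional dendritic cells, 1063 and 798. Interstitial macrophage-like cells held 632 and 468 and B cell-like cells 648 and 722. Neutrophil-like cells, which no longer divide once mature, held 256 (240 to 272) and 268 (253 to 285).

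**Figure D1:**
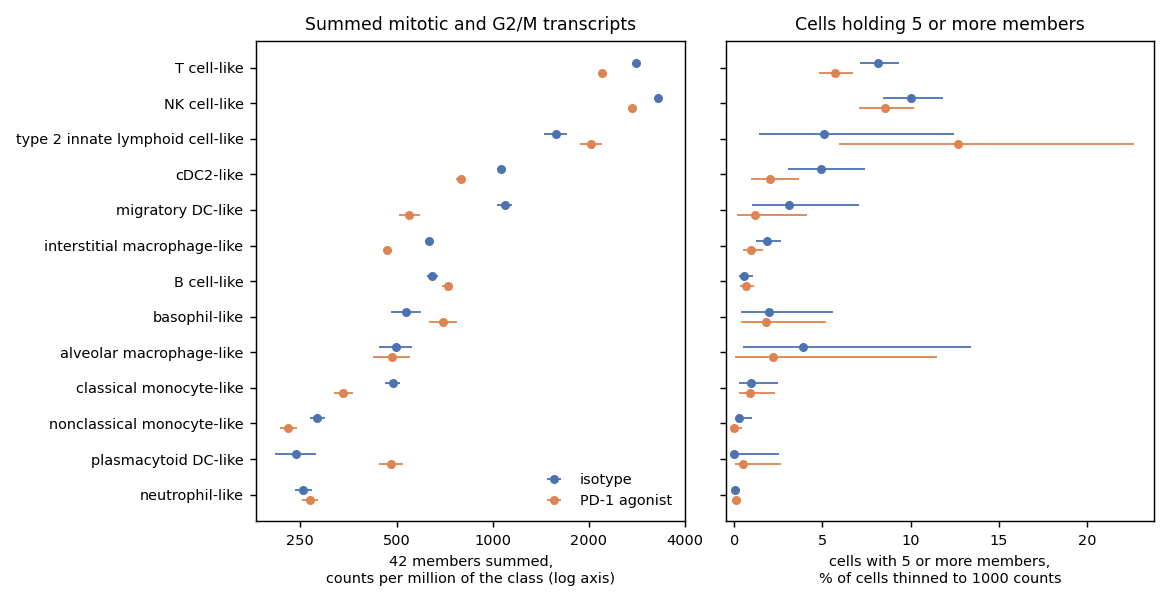
Left, the 42 members summed as CPM of the class on a log axis; right, the percent of cells that held 5 or more members after thinning to 1000 counts; points are the 2 pools and lines are 95% counting intervals. T cell-like and NK cell-like cells stand highest on the left, and the agonist point lies left of the isotype point in T cell-like, NK cell-like, cDC2-like and interstitial macrophage-like cells.

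Counted cell by cell, few cells carried the transcripts. After each cell was thinned to 1000 counts, which left out 547 isotype and 764 agonist cells below that depth, 5 or more members were found in 414 of 11234 isotype cells (3.69%, interval 3.34 to 4.05) and in 316 of 11929 agonist cells (2.65%, 2.37 to 2.95). Without thinning the shares were 8.55% and 6.11%. The limit of 5 members cuts through a falling slope and not a gap: over both treatments 147 thinned cells held 4 members, 144 held 5 and 124 held 6, while 15796 of 23163 held none. In T cell-like cells the thinned share was 8.17% (7.11 to 9.32) in isotype and 5.71% (4.79 to 6.73) in agonist, a log2 ratio of -0.52 (-0.85 to -0.19). In NK cell-like cells it was 10.0% and 8.53%, with an interval of the ratio that included 0 (-0.62 to 0.15). In neutrophil-like cells, taken as the background, 1 of 1811 and 2 of 2154 cells passed, 0.0552% and 0.0929%. The 2 agonist cells lay in the cluster led by Camp, Ngp and Ltf, granule protein genes of immature neutrophils. They give no level for mature neutrophils. The median depth of neutrophil-like cells was 1577 and 1447 counts per cell against 2848 and 2478 in T cell-like cells.

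Cells with 5 or more members were of mixed class. Among the 1007 isotype and 776 agonist cells with 5 or more members at full depth, 40.2% and 36.0% were T cell-like, 22.2% and 26.5% NK cell-like, 14.4% and 12.2% interstitial macrophage-like and 7.05% and 8.51% cDC2-like. Called doublets, droplets scored as holding more than 1 cell, made up 2.96% and 6.09% of the T cell-like ones and 0.446% and 0.971% of the NK cell-like ones, but 48.3% and 40% of the interstitial macrophage-like ones. They made up 83.3% and 40% of the 6 and 5 neutrophil-like ones. Depth differed too, with a median of 16627 and 16499 counts in these macrophage-like cells and 8671 and 8292 in the T cell-like ones. After thinning, 414 and 316 cells passed. Of these, 200 and 131 were T cell-like, 123 and 111 NK cell-like, 28 and 13 interstitial macrophage-like and 21 and 10 cDC2-like. The part of doublets in the macrophage values was not tested beyond leaving them out, as given with those values.

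The members were found together in the same cells. For 36 of the members, more than 70% of the counts lay in cells that held 5 or more of the other members. The share was highest for Ccna2, cyclin A of S and G2 phase (97.6%), Hmmr, a spindle protein (97.3%), Nusap1, which bundles spindle microtubules (96.4%), and Birc5, the survivin subunit of the passenger complex (96.4%). In cells thinned to 1000 counts, Top2a, the topoisomerase that untangles sister chromatids, was detected in 68.8% of cells with 5 or more other members and in 2.75% of the rest. These shares are a description, since all members of a cell share its depth. The lowest shares belonged to Cenpa (40.9%), Smc4 (44.9%), Kif23 (50.1%) and Racgap1 (56.0%), each of which had much of its signal in cells with few or no other members.

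**Figure D2:**
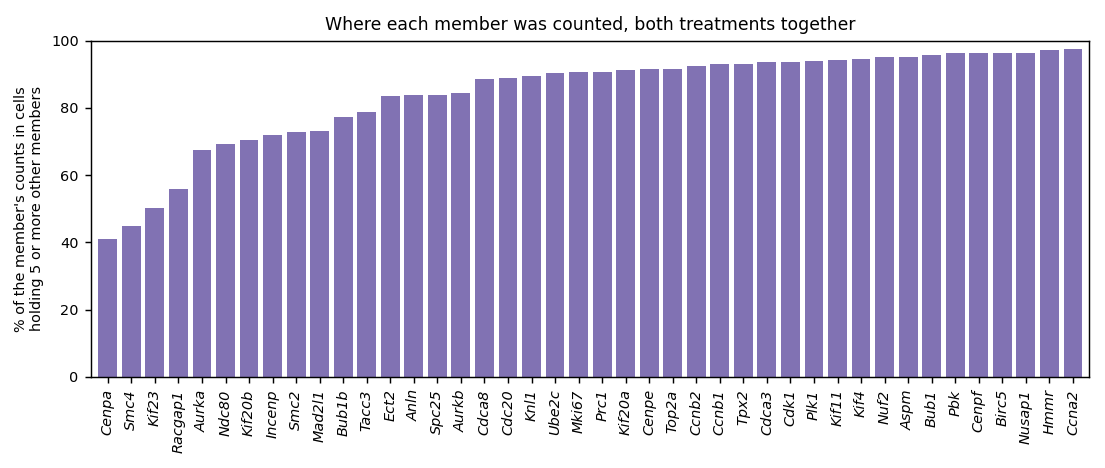
Percent of each member's counts, both pools together, that lay in cells holding 5 or more of the other members. Bars run from 40.9% for Cenpa to 97.6% for Ccna2.

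Those 4 members differed in where the remaining counts lay. Kif23 encodes the kinesin of centralspindlin, which builds the midzone of the dividing cell. It was detected in 551 of 4337 neutrophil-like cells (12.7%, interval 11.7 to 13.7). This was above the 9.25% of T cell-like cells and the 1.54% of B cell-like cells. The median depth was 1509 counts in neutrophil-like and 1547 in B cell-like cells. Type 2 innate lymphoid cell-like cells held Kif23 in 14.2% and nonclassical monocyte-like cells in 11.8%, at a median of 3464 and 4859 counts. Of the neutrophil-like cells with Kif23, 81.9% held none of the other 41 members and 1.81% were called doublets. The signal lay in the cluster led by Retnlg, S100a9 and S100a8 (16.8% of cells) more than in the cluster led by Il1a and Il1rn (5.56%), and it stood at 80.3 CPM in isotype and 84.6 in agonist.

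Cenpa, the histone variant that marks centromeres, was detected in 22.0% of B cell-like cells (interval 20.7 to 23.3), and 93.4% of its B cell-like counts came from cells with fewer than 5 other members. In T cell-like cells 23.6% held Cenpa and 44.7% of its counts lay in such cells, and in neutrophil-like cells 3.41% held it. Racgap1, the partner of Kif23 in centralspindlin, was detected in 23.8% of NK cell-like and 17.9% of T cell-like cells. It was also detected in 21.2% of classical monocyte-like, 20.6% of cDC2-like and 18.0% of plasmacytoid DC-like cells. In classical monocyte-like cells 86.5% of its counts came from cells with fewer than 5 other members. Neutrophil-like cells held Racgap1 in 0.438% of cells, so Kif23 and Racgap1 differed there in the share of cells with a count. Smc4, a condensin subunit, was detected in 48.9% of T cell-like and 6.02% of neutrophil-like cells, and 52.5% of its T cell-like counts lay outside the cells with 5 or more other members. Monocyte-like and dendritic cell-like cells were deeper, with a median of 5565 counts in classical monocyte-like cells.

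**Figure D3:**
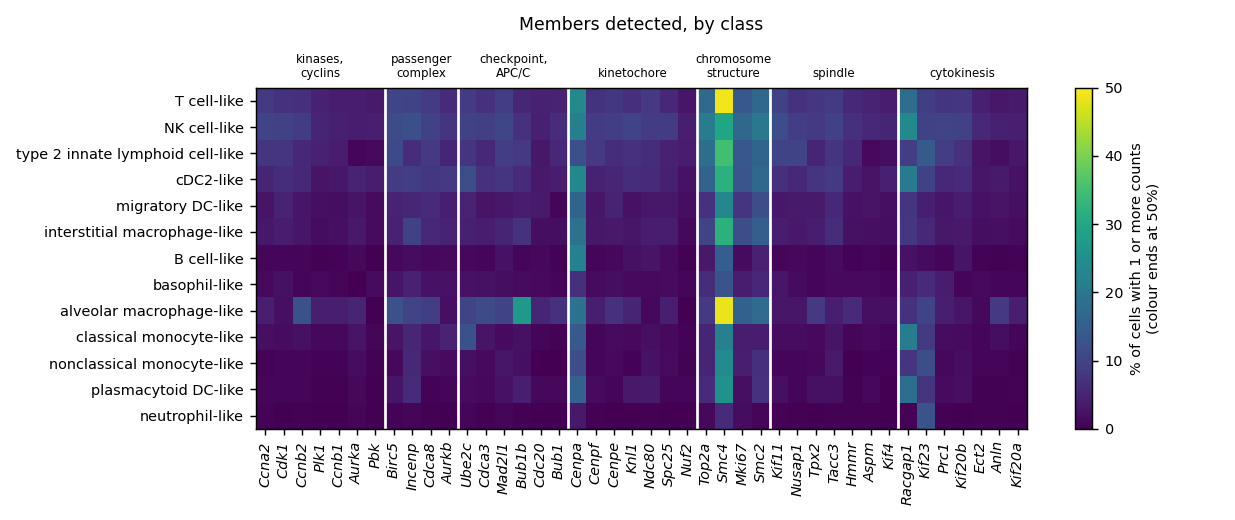
Percent of cells with 1 or more counts of each member, by class, both pools together and without thinning; members are ordered by role. Most columns fade toward neutrophil-like cells, while Cenpa stays near 22.0% in B cell-like cells and Kif23 reaches 12.7% in neutrophil-like cells.

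Between treatments, the summed members were lower in the agonist pool over all cells and in T cell-like, NK cell-like, interstitial macrophage-like and cDC2-like cells, with and without the cells of more than 4000 expressed genes. In monocyte-like, migratory DC-like, basophil-like, B cell-like and alveolar macrophage-like cells the direction turned when those cells were left out. The alveolar interval included 0 either way. Over all cells their sum was 1285 CPM in isotype and 1028 in agonist, a log2 ratio of -0.32 (-0.34 to -0.30). By table the isotype sums were 1404, 1176 and 1325 and the agonist sums 1059, 1021 and 997, which did not overlap. Of the 42 members, 32 were lower past the fold and 0 higher, where 8.86% of all 15895 genes tested were lower and 12.6% higher past the same fold. The median member stood at -0.37 and the median gene at -0.01. Cells with more than 4000 expressed genes, 5.60% of isotype and 3.71% of agonist cells, held 45.1% and 35.3% of the member counts. Without them the sum gave -0.20 and 16 members were lower past the fold, a count without the share of all genes in that setting. What deeper cells contribute beyond that was not tested.

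In T cell-like cells (2513 isotype and 2375 agonist cells) the sum gave a log2 ratio of -0.36 (-0.38 to -0.33). By table it was 2917, 2615 and 3010 in isotype and 2309, 2018 and 2314 in agonist. Of the 42 members, 33 were lower past the fold and 0 higher, against 11.7% and 11.9% of 11733 genes, and 41 lay below 0. The median member was at -0.45 and the median gene at -0.02. The members of every role are given in turn.

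Among the kinases and cyclins, 4 of 7 were lower past the fold in T cell-like cells. Ccna2 stood at 66.7, 63.7 and 70.4 CPM in the isotype tables and at 53.4, 50.2 and 57.4 in the agonist tables, without overlap, and its log2 ratio was -0.39 (-0.57 to -0.21). Cdk1 stood at 40.7, 45.6 and 47.8 against 36.2, 34.7 and 40.4, sets that nearly touch, with a ratio of -0.36 (-0.58 to -0.14). Ccnb1, the cyclin that carries Cdk1 into mitosis, had one of the lowest ratios, -0.77 (-1.10 to -0.44), with 25.7, 20.1 and 25.9 against 14.5, 12.1 and 18.5. Near-identical copies share 46.9% of the 31-base stretches of its longest transcript, so its level is uncertain. Its partner Ccnb2 was at -0.29 (-0.51 to -0.07), just short of the fold, and Plk1, the polo kinase, at -0.56. Aurka, the kinase of spindle poles, was at -0.17 (-0.54 to 0.19) and Pbk, a further mitotic kinase, at -0.25 (-0.63 to 0.13), with intervals that included 0.

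All 4 genes of the chromosomal passenger complex, which corrects faulty attachments and later guides cytokinesis, were lower past the fold. Birc5 stood at 122, 118 and 126 CPM in isotype and at 98.6, 79.6 and 94.3 in agonist, a ratio of -0.43 (-0.56 to -0.29). Incenp, the scaffold, was at -0.51 (-0.70 to -0.32), Cdca8, the borealin subunit, at -0.42 (-0.62 to -0.23), and Aurkb, the kinase, at -0.49 (-0.75 to -0.23). The same held for all 6 genes of the checkpoint and the anaphase-promoting complex. Ube2c, which loads ubiquitin for that complex, stood at 133, 112 and 124 against 103, 68.0 and 108 (-0.41, -0.55 to -0.28). The checkpoint kinase-like Bub1b was at -0.68 (-0.98 to -0.39), the checkpoint protein Mad2l1 at -0.53, the kinase Bub1 at -0.54, Cdca3 at -0.46 and the activator Cdc20 at -0.51. Of the Cdc20 transcript, 27.4% of 31-base stretches recur in other genes.

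Of the 7 kinetochore genes, 5 were lower past the fold. Cenpf, a large outer kinetochore protein, stood at 91.0, 68.5 and 88.3 CPM in isotype and at 57.8, 46.1 and 61.8 in agonist, without overlap (-0.58, -0.75 to -0.41). Cenpe, a kinetochore motor, was at -0.57 (-0.77 to -0.37), Spc25 at -0.47, Nuf2 at -0.36 and the scaffold Knl1 at -0.31. Ndc80, which is in a complex with Nuf2 and Spc25, was at -0.14 (-0.38 to 0.10). Cenpa was the only member above 0, with 125, 112 and 126 against 136, 115 and 134, overlapping sets, and a ratio of 0.05 (-0.07 to 0.17).

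Of the 4 genes of chromosome structure, 2 were lower past the fold. Top2a stood at 417, 378 and 447 CPM in isotype and at 304, 268 and 287 in agonist, without overlap (-0.49, -0.56 to -0.41). Mki67, which coats mitotic chromosomes, stood at 215, 188 and 225 against 176, 153 and 182 (-0.31, -0.41 to -0.21). The condensin genes were nearer to 0, Smc2 at -0.20 (-0.33 to -0.08) and Smc4 at -0.04 (-0.11 to 0.04), the latter with 320, 302 and 320 against 307, 286 and 314. Cenpa, Smc4, Kif23 and Racgap1, the 4 members with the largest share of counts outside multi-member cells, were all within the fold here. So were Ccnb2, Pbk, Smc2, Ndc80 and Aurka. Over all cells, these had 92.4%, 96.2%, 72.9%, 69.2% and 67.6% of counts in cells with 5 or more other members.

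All 7 spindle genes were lower past the fold. Aspm, a protein of spindle poles, had the lowest ratio of all members at -0.78 (-1.08 to -0.49), with 31.2, 22.5 and 31.5 CPM in isotype and 17.2, 13.5 and 20.2 in agonist. Kif11, the motor that pushes spindle poles apart, was at -0.52 (-0.68 to -0.35), Nusap1 at -0.52 (-0.70 to -0.34) and Tpx2, the activator of Aurora A, at -0.38 (-0.59 to -0.18). Hmmr was at -0.51, Tacc3 at -0.44 and the chromosome-bound kinesin Kif4 at -0.43. Of the 7 cytokinesis genes, 5 were lower past the fold. Prc1, which bundles the microtubules of the midzone, stood at 60.6, 51.2 and 59.5 against 36.5, 26.8 and 38.4, without overlap (-0.73, -0.94 to -0.52). The kinesins Kif20a and Kif20b were at -0.57 and -0.55, the contractile ring protein Anln at -0.53 and Ect2 at -0.43, while Kif23 was at -0.24 (-0.45 to -0.03) and Racgap1 at -0.18 (-0.33 to -0.04).

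**Figure D4:**
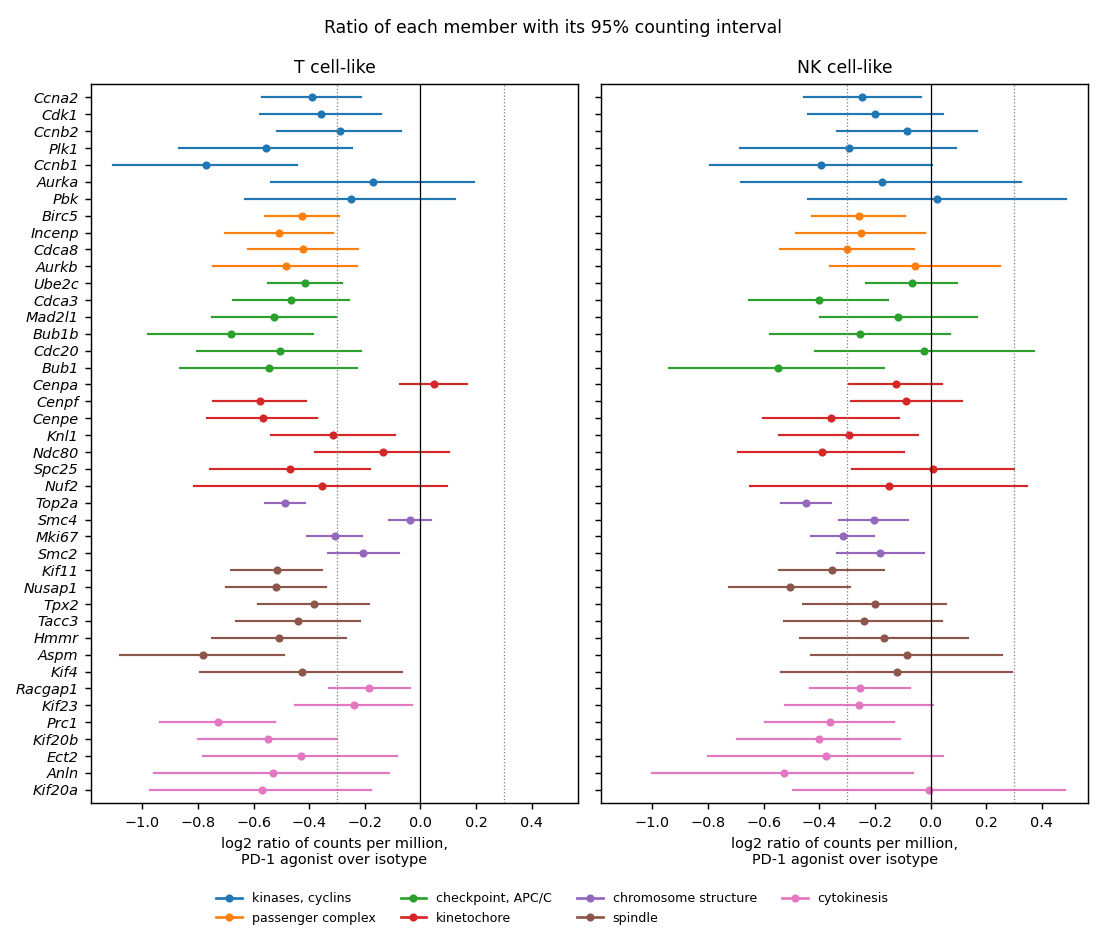
Log2 ratio of CPM, agonist over isotype, of every member in T cell-like and NK cell-like cells, with 95% counting intervals; dotted lines mark 0.3 in either direction and colours mark the 7 roles. In T cell-like cells 41 points lie left of 0, with Cenpa at 0.05, and the points of NK cell-like cells lie nearer to 0.

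The summed T cell-like ratio was smaller in size when the deepest cells were left out. Cells with more than 4000 expressed genes were 3.82% of isotype and 2.86% of agonist T cell-like cells and held 41.5% and 31.3% of the member counts. Without them the sum gave -0.20, 17 members were lower past the fold, among them Top2a at -0.41, and 1 was higher, Aurka at 0.30. The members tested and the share of all genes are not given for that setting, so these member counts have no background. Only T cell-like cells with 5 or more other members were then compared, 382 to 405 isotype and 266 to 279 agonist cells depending on the member. In them 7 of 42 members were lower past the fold and the median was -0.17. The share of all genes past the fold is not given for these cells, and was 11.7% downward in the whole class. This count is therefore not read as a result about the members. The lowest members were Aspm at -0.46 (-0.77 to -0.17), Ccnb1 at -0.46 (-0.80 to -0.13) and Prc1 at -0.42 (-0.63 to -0.21). All of these cells were chosen by the members themselves, so these levels are a description.

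The make-up of the T cell-like class differed between the pools as well. The sub-cluster led by Dapl1 and Ccr7, genes of resting T cells, held 17.4% of isotype and 21.9% of agonist T cell-like cells and 705 and 687 member CPM. The sub-cluster led by Igfbp4 and Trib2 held 19.5% and 25.1% of cells and 626 and 623. Both were thus larger in the agonist pool and low in members in either pool. The sub-cluster led by Gzmk and Cx3cr1 was smaller in the agonist pool, 7.60% against 4.63% of cells, at a like level of 4216 and 4235 (log2 ratio 0.01, -0.07 to 0.09). In other sub-clusters the level itself was lower: 3752 against 2591 in the sub-cluster led by Klra7 and Xcl1 (-0.53, -0.60 to -0.47) and 5317 against 3785 in the one led by Ccl1 and Csf2 (-0.49, -0.57 to -0.41). It was higher in 3 sub-clusters: 2298 and 2849 in the one led by Blk and Il23r (0.31, 0.19 to 0.43), 2485 and 3142 in the one led by Areg and Foxp3 (0.34, 0.21 to 0.46), and 844 and 1883 in the one led by Klra8 and Ncr1 (1.16, 0.94 to 1.38), whose leading genes are those of NK cells. With the sub-clusters held at the same share of counts in both pools, an alternative chosen after seeing the data, the T cell-like sum was 2670 against 2317, a log2 ratio of -0.21.

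**Figure D5:**
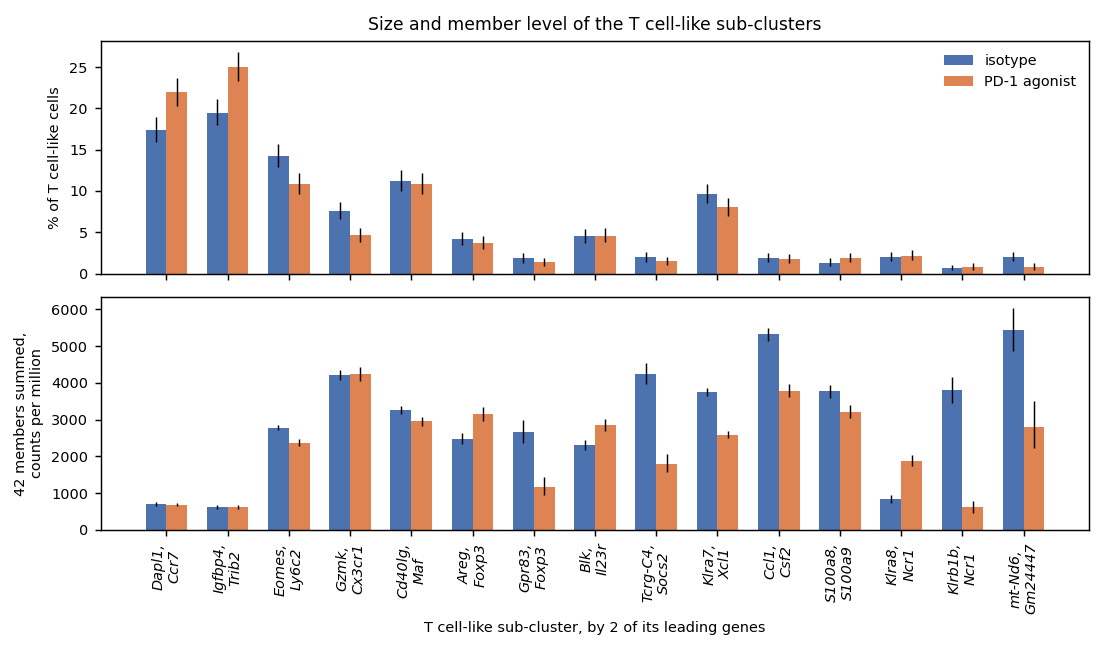
Upper panel, percent of T cell-like cells in each sub-cluster, named by 2 of its leading genes; lower panel, the 42 members summed as CPM; bars are the 2 pools and lines 95% counting intervals. The Dapl1 and Igfbp4 sub-clusters grow from 17.4% to 21.9% and from 19.5% to 25.1% with member levels of 623 to 705 in either pool.

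By T cell subset, CD8 T cell-like cells held 2505 and 1951 member CPM (-0.36, -0.41 to -0.31), with 29 of 42 members lower past the fold and 0 higher against 16.8% and 13.4% of genes. Within them the ratio was -0.23 (-0.29 to -0.17) in the sub-cluster led by Eomes and Ly6c2, which held 14.2% and 10.9% of T cell-like cells, and near 0 in the Dapl1 (-0.04, -0.18 to 0.10) and Gzmk sub-clusters. The part of the shift in shares in the CD8 value was not tested. CD4 T cell-like cells held 1908 and 1604 (-0.25, -0.32 to -0.18), with 22 of 32 tested lower and 0 higher against 15.7% and 15% of genes. Of their 2 sub-clusters, the one led by Cd40lg and Maf gave -0.14 (-0.22 to -0.06) and the Igfbp4 one -0.01 (-0.16 to 0.15). Gamma-delta T cell-like cells held 2895 and 2640 (-0.13, -0.23 to -0.03), with 8 of 25 lower and 4 higher against 18.3% and 18.5%. Their 2 sub-clusters went opposite ways, the one led by Blk and Il23r upward and the one led by Tcrg-C4 and Socs2, 49 and 35 cells, from 4249 to 1803 (-1.24, -1.46 to -1.02). Regulatory T cell-like sub-clusters, 151 and 121 cells, held 2496 and 2832 (0.18, 0.07 to 0.30), with 2 of 11 lower and 4 higher against 19.7% and 18.6%. Here too the sub-clusters differed, the one led by Areg at 0.34 and the one led by Gpr83, 46 and 33 cells, at -1.18 (-1.55 to -0.83). The direction also turned with the clustering: the cluster of 162 and 121 cells led by Foxp3 in the clustering of all cells held 1888 and 1427, a ratio of -0.40 (-0.55 to -0.26). A further 441 and 368 T cell-like cells lay in sub-clusters without a subset name and held 3843 and 2782 (-0.47, -0.51 to -0.42). Of their members 32 of 42 were lower past the fold and 0 higher, against 17% and 13.9% of genes. They carried more member counts than CD8 T cell-like cells, 11738 and 6400 against 10504 and 5888. Differences between subsets were not tested.

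In NK cell-like cells (1258 and 1355 cells) the sum gave -0.27 (-0.30 to -0.23), and 13 of 42 members were lower past the fold and 0 higher, against 10.6% and 12.4% of 10200 genes. The median member was at -0.25. Top2a stood at 485 and 356 CPM (-0.45, -0.54 to -0.36), Nusap1 at 88.9 and 62.6 (-0.51, -0.72 to -0.29), Bub1 at -0.55 and Cdca3 at -0.40. Ccnb2, Ube2c, Aurkb and Cenpf lay between -0.09 and -0.06, and Spc25 and Pbk stood at 0.01 and 0.02. Aspm, lowest in T cell-like cells, was at -0.09 (-0.43 to 0.26) here. The 3 isotype tables held 3826, 2633 and 3050 and the 3 of the agonist 2718, 2922 and 2423, so they overlapped. Without the first isotype table the sum gave -0.087 with 3 members lower and 3 higher past the fold. Without the third isotype table it gave -0.30 with 20 lower, and without the second agonist table it gave -0.36 with 25 lower. For these settings the share of all genes is not given.

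Among myeloid cells, interstitial macrophage-like cells (1578 and 1399 cells) gave a summed ratio of -0.43 (-0.48 to -0.39). By table the sums were 705, 585 and 701 against 482, 466 and 420. Of 41 members tested, 31 were lower past the fold and 0 higher, against 10.7% and 11.4% of 12114 genes, with Kif4 at -1.18 (-1.90 to -0.51), Prc1, Nusap1 and Cenpf at -1.10 each, and Cenpa at 0.04 and Tacc3 at 0.04. This result depended on which cells were counted: called doublets left out, it was -0.28 with 20 lower; without cells over 4000 genes, which held 76.0% and 65.5% of the member counts, -0.12 with 5 lower and 1 higher; and with the cell cycle genes kept in the clustering, -0.028 with 10 lower and 2 higher. Of the 2 clusters in the class, the one led by C1qa and C1qb gave -0.52 (-0.57 to -0.46) and the one led by Slc7a2 and Ctsk -0.05 (-0.17 to 0.07). At a clustering resolution of 2 the class gave -0.093 with 13 lower and 2 higher. The counts of these settings come without the members tested or the share of all genes, so they have no background.

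In cDC2-like cells (436 and 508 cells) the ratio was -0.41 (-0.48 to -0.35), with 21 of 34 lower past the fold and 0 higher against 13.3% and 13.9% of genes. Pbk (-1.05, -1.86 to -0.28) and Incenp (-0.89, -1.39 to -0.40) were lowest, and Ccna2 was at 0.25 (-0.28 to 0.79). By table the sums were 1057, 1071 and 1002 against 944, 760 and 952. Cells over 4000 genes held 67.3% and 58.6% of the member counts, and without them the ratio was -0.23 with 6 members lower. The members tested and the share of all genes are not given for that setting.

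Other classes did not share the direction or were thin. In B cell-like cells the sum was higher in the agonist pool, 0.16 (0.08 to 0.24), with 8 of 28 members higher and 3 lower past the fold against 11.8% and 12% of 9502 genes. Among them were Cenpf at 1.23 (0.52 to 1.97), Cenpe at 1.14 and Mki67 at 0.73. In agonist, 5 cells over 4000 genes held 26.3% of the B cell-like member counts, and without such cells in either pool the ratio turned to -0.23. Without the third agonist table it was 0.0081. The B cell-like cluster led by Iglc1 and Vpreb3 gave 0.37 (0.27 to 0.47) and the one led by Fcer2a and Ighd -0.11 (-0.25 to 0.02). Neutrophil-like cells gave 0.07 (-0.06 to 0.19), with 2 of 6 members lower past the fold and 0 higher against 16.6% and 16.2% of genes, and without the second agonist table the ratio was -0.11. The sum joined clusters that differed. The level was lower in agonist in the cluster led by Il1a and Il1rn, 259 against 171 (-0.60, -0.83 to -0.38), and less so in the one led by Retnlg and S100a9 (-0.19, -0.37 to -0.01). In the cluster led by Camp, Ngp and Ltf, granule protein genes of immature neutrophils, 35 isotype and 36 agonist cells held 114 and 1114 (3.29, 2.63 to 4.02). These levels rest on 20 and 262 member counts, and 0 members had enough counts to be tested. At full depth 0 of the isotype and 3 of the agonist cells in it held 5 or more members. Type 2 innate lymphoid cell-like cells, 81 and 74 cells, gave 0.36 (0.20 to 0.53) with 5 of 7 members higher and 1 lower against 24.3% and 20.4% of genes. In isotype, 4 cells over 4000 genes held 46.0% of those counts, and without them the ratio was 0.88.

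The direction in monocyte-like cells turned without the deepest cells. Classical monocyte-like cells held 487 and 341 (-0.52, -0.64 to -0.39) with 5 of 10 members lower and 1 higher, against 13.8% and 14.2% of genes. In isotype, 21 cells over 4000 genes, 4.87% of the class, held 58.4% of the member counts and 12.5% of all counts, and in agonist such cells held 7.89% and 6.46%. Without them the class held 234 and 331, a ratio of 0.50 (0.34 to 0.66), and with called doublets left out -0.22. Of the classical monocyte-like cells with 5 or more members, 76.5% in isotype and 50% in agonist were called doublets. Nonclassical monocyte-like cells held 283 and 229 (-0.30, -0.42 to -0.19) with 5 of 11 lower and 1 higher, against 15.5% in either direction. Cells over 4000 genes held 46.4% of their isotype and 17.6% of their agonist member counts, and without them the sums were 210 and 225 (0.10, -0.04 to 0.24). The ratio was 0.07 with called doublets left out and 0.03 without the third isotype table.

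In the thinnest classes, too, a few cells held much of the counts. Migratory DC-like cells, 164 and 177 cells, gave -0.99 (-1.12 to -0.86), with 14 of 16 members lower and 0 higher against 17.2% and 19.1% of genes, and 1 cell held 31% of the isotype and 26.7% of the agonist counts of Top2a there. The 18 isotype and 12 agonist cells over 4000 genes held 90.2% and 67.5% of the member counts, and without them the class held 164 and 220, a ratio of 0.42 (0.12 to 0.73). Plasmacytoid DC-like cells, 145 and 210 cells, gave 0.99 (0.75 to 1.24), with 3 of 4 members higher and 0 lower against 19.1% and 15.6%, and 1 cell held 38.5% of the isotype and 26.9% of the agonist counts of Top2a. In agonist, 7 cells over 4000 genes held 41.2% of the member counts against 1.06% for 1 such cell in isotype, and all 6 agonist cells with 5 or more members were called doublets. Without cells over 4000 genes the ratio was 0.36 (0.10 to 0.63), and with called doublets left out 0.24 (-0.08 to 0.56). Basophil-like cells, 155 and 167 cells, gave 0.39 (0.17 to 0.60) with 1 of 3 members higher and 0 lower against 23.9% and 17.7%, but -0.06 without cells over 4000 genes and -0.82 with called doublets left out. Alveolar macrophage-like cells, 51 and 46 cells, gave -0.05 (-0.31 to 0.21), and their 1 member with enough counts, Smc4, was within the fold, which 20.3% of genes passed downward and 21.1% upward. Without cells over 4000 genes the alveolar ratio was 0.08 (-0.21 to 0.37), and with called doublets left out 0.06 (-0.21 to 0.32).

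Other genes of the cycle were read beside the members. In T cell-like cells, 37 of 60 further G2/M genes were lower past the fold and 0 higher, with a median of -0.35, against 11.7% of all genes. Their most counted genes moved little: Bub3, a checkpoint protein, was at -0.10 (-0.24 to 0.03), Pttg1, the securin, at 0.05 (-0.16 to 0.25) and Cks2, a subunit bound to Cdk1, at -0.05 (-0.23 to 0.13). Of 61 genes of G1/S and DNA replication, 20 were lower and 1 higher, with a median of -0.23, among them Pcna, the sliding clamp (-0.21, -0.28 to -0.14), Atad2 (-0.10, -0.19 to -0.01) and Dut, a nucleotide enzyme (-0.32, -0.41 to -0.22). Of 14 genes of quiescence and cycle arrest, 1 was lower and 0 higher, with a median of -0.01, and Btg1 stood at 0.13 (0.10 to 0.15), Btg2 at 0.18 (0.10 to 0.26) and Cdkn1a at 0.10 (-0.07 to 0.27).

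The mitotic genes were lower relative to the replication genes in the agonist pool over all cells and in some classes. In T cell-like cells there were 0.688 member counts for each G1/S count in isotype and 0.629 in agonist, in NK cell-like cells 0.752 and 0.682, and over all cells 0.637 and 0.581. The order was the same in interstitial macrophage-like (0.526 and 0.446), cDC2-like (0.574 and 0.451) and migratory DC-like cells (0.940 and 0.563). It was also the same in classical (0.629 and 0.528) and nonclassical monocyte-like cells (0.400 and 0.357). The order was the opposite in B cell-like (0.438 and 0.536), neutrophil-like (0.626 and 0.718), alveolar macrophage-like (0.659 and 0.708), type 2 innate lymphoid cell-like (0.602 and 0.717), plasmacytoid DC-like (0.287 and 0.383) and basophil-like cells (0.401 and 0.542). Of all cells with 5 or more members, 93.5% in isotype and 94.5% in agonist also held 5 or more G1/S genes. Cells with 5 or more G1/S genes but fewer than 5 members made up 18.8% of isotype and 15.3% of agonist cells. These last shares were not thinned, and median depth per cell was lower in the agonist pool.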

How the data were processed

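Live CD45+ lung cells were profiled on the 10x Chromium in 6 tables, 3 per treatment. The authors deposited estimated counts (expected counts of molecules per gene and cell) with no normalization evident from the values. The authors also give for every cell its total count, its expressed genes, and mitochondrial and ribosomal reads as a percent. Partek and mm10 are named, per the submitters' processing notes. The sources used here do not give the aligner, the counter or their versions. The members, gene lists and marker lists were chosen with earlier results of these data known.

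Blank lines were dropped, lines that held 2 records were split, and expected counts were rounded to whole numbers. Each barcode was kept once per treatment, in its record with the highest total, with at least 500 expressed genes and no upper limit. Cells were clustered with scanpy 1.11.5 and the Leiden method (igraph 0.11.9; 2000 variable genes without cell cycle genes, 30 components, 15 neighbours, resolution 1), and T cell-like clusters again. Clusters were named from 24 marker lists. Naming thresholds were set after the clusters had been seen. Doublets were called with Scrublet (expected rate 0.1, threshold 0.25): 7.83% of isotype and 9.04% of agonist cells, kept unless stated. Clusters made up mostly of called doublets stayed unnamed, with 458 isotype and 590 agonist cells.

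Counts were summed per class and treatment and scaled by TMM factors, for which alone edgeR 4.0.16 (R 4.3.3) was used. Levels have exact Poisson intervals, ratios exact Clopper-Pearson intervals and shares exact binomial intervals. A fit of 3 tables against 3 was not made because tables of a treatment share cells. Ratio and interval were tested on simulated data. Members given with intervals or table values are mainly the 3 with most counts in each of the 7 roles and the 5 lowest and 5 highest T cell-like ratios. Of each other cycle list the 3 genes with most counts are given. Members named in classes other than T cell-like cells were chosen after their values were seen.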

Additional observations from a re-analysis of the deposited data

How the results depend on the processing

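No paired analysis was possible because the tables of a treatment share cells, are not separate samples and enter no test. All values here are log2 ratios of agonist over isotype or counts of members past the fold, and the cause of the shifts was not tested. The counts are given without the members tested or the share of all genes in each setting. Without cells over 4000 expressed genes, the summed ratio was -0.20 over all cells (16 members lower), -0.20 in T cell-like (17 lower, 1 higher), -0.12 in interstitial macrophage-like (5 lower, 1 higher), -0.23 in cDC2-like (6 lower) and -0.23 in B cell-like cells. It was 0.50 in classical and 0.10 in nonclassical monocyte-like, 0.42 in migratory DC-like, 0.36 in plasmacytoid DC-like, 0.88 in type 2 innate lymphoid cell-like, -0.058 in basophil-like and 0.081 in alveolar macrophage-like cells. With called doublets left out, the sums were -0.30 over all cells, -0.28 in interstitial macrophage-like (20 lower), -0.53 in cDC2-like, 0.33 in B cell-like and 0.30 in neutrophil-like cells, and, in the same order of thin classes, -0.22, 0.074, -1.13, 0.24, 1.06, -0.82 and 0.055. Clustering at resolution 0.5 gave -0.33 in cDC2-like cells with 1 member higher, and resolution 2 gave -0.093 in interstitial macrophage-like (13 lower, 2 higher) and 0.33 in neutrophil-like cells. With cell cycle genes kept in the clustering, the sums were -0.028 in interstitial macrophage-like (10 lower, 2 higher; share of cells with 5 or more members -2.14) and 0.33 in neutrophil-like cells, and in thin classes 0.11 in classical and 0.10 in nonclassical monocyte-like, 0.44 in migratory DC-like and 0.73 in basophil-like cells. Clustering at resolution 0.5 gave -0.60 in nonclassical, and resolution 2 gave 0.33 in classical monocyte-like and 0.53 in type 2 innate lymphoid cell-like cells. Taking the record with the lowest total gave -0.49 in cDC2-like cells and 1 member higher in interstitial macrophage-like cells. Clusters held at the same share of counts, chosen after seeing the data, gave -0.23 over all cells and -0.21 in T cell-like cells. At a threshold of log2 0.5, 5 members were lower over all cells, 17 in T cell-like, 3 in NK cell-like and 20 in interstitial macrophage-like cells. For the share of cells, a limit of 10 members gave -0.71 over all cells and -1.0 in T cell-like cells, and thinning to 2000 counts gave -0.26 over all cells. The neutrophil-like share, of 3 cells in all, turned to -0.25 at a limit of 3 members and to -0.55 without thinning. Leaving out each table in turn, the sums ranged from -0.39 to -0.28 over all cells, -0.40 to -0.28 in T cell-like, -0.36 to -0.087 in NK cell-like, -0.54 to -0.38 in interstitial macrophage-like, -0.46 to -0.31 in cDC2-like, 0.0081 to 0.28 in B cell-like and -0.11 to 0.18 in neutrophil-like cells. They ranged from -0.66 to -0.46 in classical and -0.45 to 0.025 in nonclassical monocyte-like, -1.39 to -1.01 in migratory DC-like, 0.79 to 1.26 in plasmacytoid DC-like, 0.15 to 0.93 in type 2 innate lymphoid cell-like, 0.25 to 0.60 in basophil-like and -0.22 to 0.29 in alveolar macrophage-like cells. Members lower past the fold ranged from 22 to 36, 27 to 35, 3 to 25, 27 to 33 and 19 to 23 over all cells and in T cell-like, NK cell-like, interstitial macrophage-like and cDC2-like cells, and members higher from 0 to 3 in NK cell-like, 0 to 1 in interstitial macrophage-like and cDC2-like cells, and stayed at 0 over all cells and in T cell-like cells. Among 338 combinations of a named member in T cell-like cells and a setting, 322 stayed within the member's counting interval, 16 left it and 0 of those past the fold changed sign. Members within the fold did change sign. Aurka was lower in agonist with all cells and higher without cells over 4000 expressed genes. Cenpa ranged from -0.025 to 0.11 when each table was left out in turn. Depth and cell number limit the share of cells with 5 or more members in the small classes, where its intervals are wide.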
